A study of Saccharomyces cerevisiae with 22 samples.

Results

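The genes described here are 40 nuclear genes of budding yeast (Saccharomyces cerevisiae) that encode the respiratory chain and the mitochondrial ATP synthase. They were taken by name from the known subunits: 13 of ATP synthase, 9 of the cytochrome bc1 complex, 2 of cytochrome c, 9 of cytochrome oxidase, 4 of succinate dehydrogenase and 3 NADH dehydrogenases. Of the 6242 genes in the deposited table, 38 belonged to this set, and ATP18 and TIM11, a pair of small ATP synthase subunits, were not analysed here. A further pair, QCR2 and CYC7, had too few values for the fits, so 36 were tested among 4772 genes. RNA came from 3 chemostats, each sampled at steady state in galactose and then in glucose. The chemostat called no3AT had 2 galactose arrays, 2 early and 2 later glucose arrays and 2 at glucose steady state. The chemostat called 3AT40mM held 40 mM of 3AT (3-amino-1,2,4-triazole, an inhibitor of the histidine enzyme His3) and had 2, 2, 3 and 1. The chemostat called no3AT2, a second one without the inhibitor, had 1 galactose array, 2 early glucose arrays and 3 at glucose steady state. Total RNA was hybridised for the first 2 chemostats and polyA RNA for no3AT2, so RNA type and culture cannot be told apart there, just as inhibitor and culture cannot be told apart for 3AT40mM. The strain and genotype are not stated in the sources used here.

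In yeast, electrons enter the chain from NADH through single-subunit dehydrogenases, since the multi-subunit complex I of other organisms is absent, and from succinate through succinate dehydrogenase. The bc1 complex passes them to cytochrome c and cytochrome oxidase to oxygen, while the protons pumped on the way drive ATP synthase. Many of these genes are known to be repressed by glucose, when cells ferment, and activated by the Hap2/3/4/5 complex during respiration. A pair of the subunits exist as isoforms known for opposite responses to oxygen and haem: COX5A and CYC1 are the aerobic forms, COX5B and CYC7 the hypoxic ones.

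Each value is a log2 ratio of a gene's RNA in the sample over that in one reference, pooled from glucose and galactose RNA, after the median of the array was set to 0. A value thus gives RNA relative to the typical gene on that array, and in bulk RNA fewer cells expressing a gene and less RNA per cell cannot be told apart. An array lacked between 138 and 1587 of its 6281 values. Over all genes, pairs of arrays correlated at -0.44 to 0.87, and 10 of 231 pairs lay below -0.3. The direction of the ratios was kept because the labels name the dyes and the conditions could oppose each other. GAL7, an enzyme of galactose breakdown, fell by 2.54 in early glucose over the 3 chemostats (adjusted p = 0.0087), and HIS3 fell by 2.35 (adjusted p = 0.0141). GAL1, the galactokinase, fell by 1.70 (adjusted p = 0.0221). On some later and steady-state glucose arrays GAL1 was not below galactose. In 3AT40mM it read -0.94 at 937 hours, against -1.23 and -1.06 in galactose. In no3AT it read -0.48 at 478 hours and -0.53 at 526 hours, between its galactose values of -1.17 and -0.46. GAL7 and HIS3 lay below galactose on each of these arrays. The 3AT40mM glucose array at 552 hours went against its label: it correlated at 0.87 with the galactose array of that chemostat at 522 hours, but at -0.20 with the glucose array at 574 hours. Without it the early changes of GAL7, GAL1 and HIS3 were -3.21, -2.25 and -2.76. For the respiratory genes, leaving it out moved the early changes over the 3 chemostats by -0.25 to 0.19 (median size 0.07), and NDE2 and NDI1 changed sign. Counts, medians and calls that shift without it are given both ways in many places, but not in all. A second property of the table bears on single genes: rows close together in the deposited order moved together, so each change was also computed after subtracting from each value the median of its 10 neighbouring rows on either side, taken at steps of 2. These are called neighbour-corrected below.

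**Figure D1:**
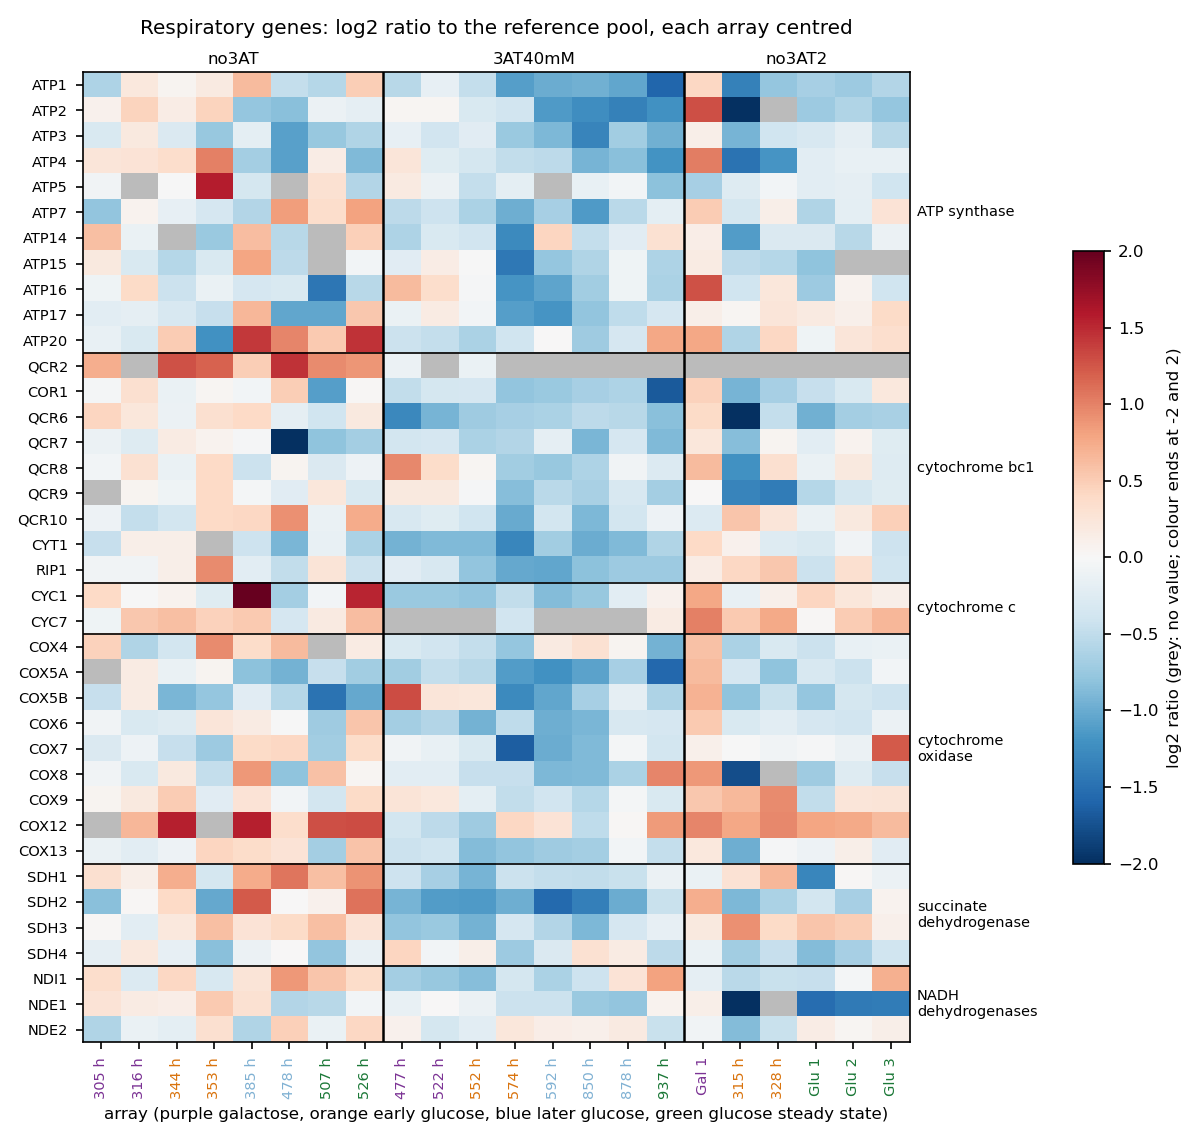
Log2 ratio to the reference pool (colour) of the 38 genes with a row (vertical, by complex) on the 22 arrays (horizontal, by chemostat and phase), with missing values in grey. The 3AT40mM columns are mostly blue (below 0) in galactose and glucose alike, while the no3AT columns are mixed, and ATP2 and NDE1 reach their lowest values at 315 hours in no3AT2.

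Early glucose, the first 2 glucose arrays of each chemostat, was compared with galactose to ask how the respiratory genes stood after the switch in all 3 cultures. Most lay lower, by little: 30 of 36 were below 0, with a median change of -0.41 against 0.03 for all genes tested. The test was passed by 1 of 36, COX5B, which fell, beside 6.96% of all genes tested (6.73% lower and 0.231% higher). At an unadjusted p under 0.05, 7 of the 36 and 1111 of all genes passed. At glucose steady state the median was -0.22 against 0.03, with 23 of 36 below 0, and ATP16 and COX5B fell. Those 2 of 36 stand beside 17.4% of all genes tested (12.8% lower and 4.59% higher). At an unadjusted p under 0.05, 10 of the 36 and 1646 of all genes passed. The share of respiratory genes that passed was thus not above that of all genes in either comparison. Between early and steady glucose limma called 0 of 36, beside 0.0% of all genes, with a median of 0.08 against -0.03. There, 4 of the 36 and 342 of all genes had an unadjusted p under 0.05. With the neighbour-corrected values none of the 36 passed in these 3 comparisons, beside 0.0%, 0.482% and 0.0% of all genes, and the medians were -0.41, -0.30 and 0.03. Without the 552-hour array the early median was -0.44 with 28 below 0, and 2 passed (COX5B and ATP16) beside 10.4% of all genes.

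**Figure D2:**
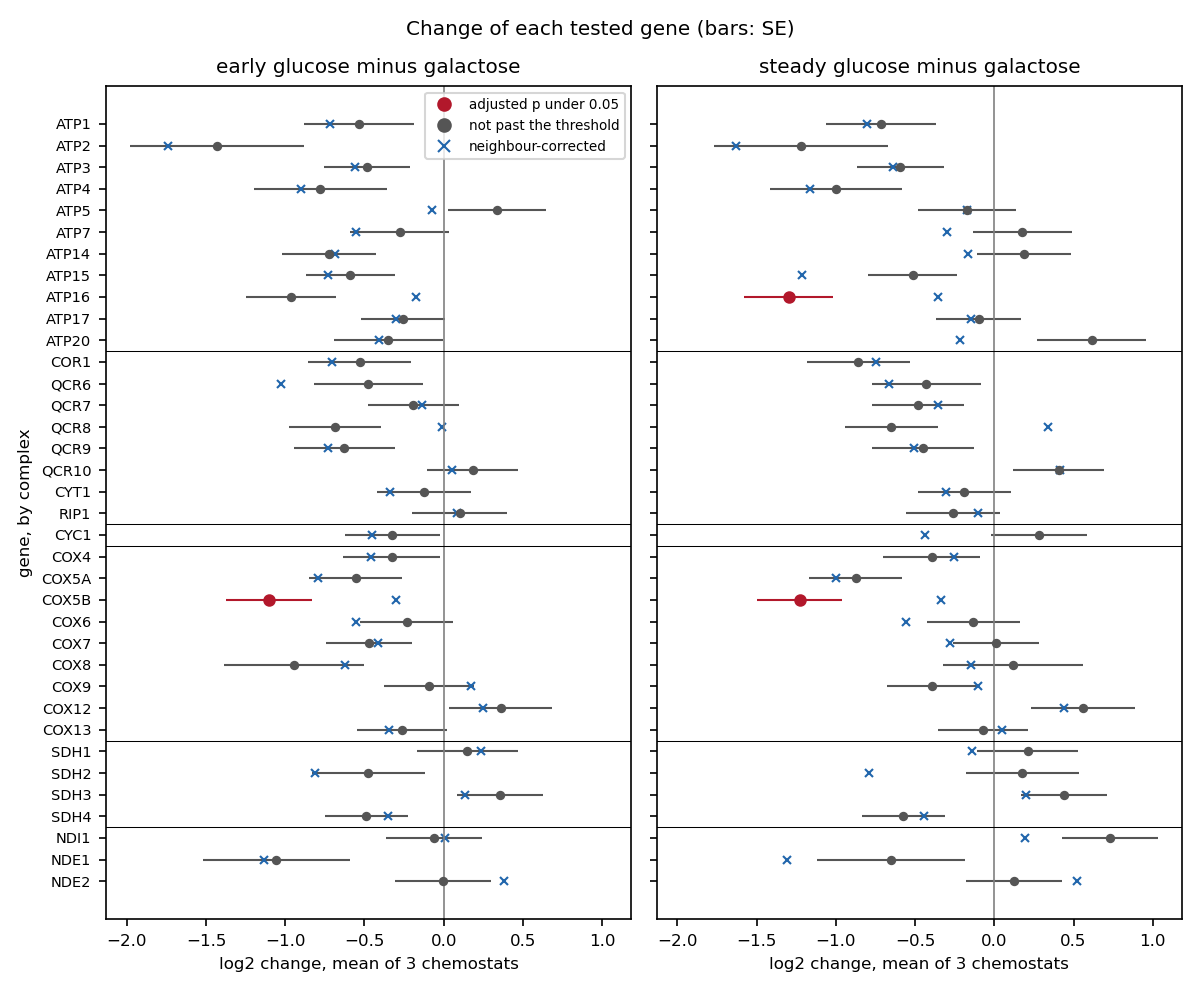
Log2 change of the 36 tested genes (vertical, by complex) in early glucose (left) and at glucose steady state (right) against galactose, as the mean over 3 chemostats (points) with its SE (bars), with neighbour-corrected changes as crosses. COX5B on the left, and ATP16 and COX5B on the right, pass the test, and for both the cross lies much nearer 0 than the point.

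The ATP synthase genes were the lowest as a group, with a median of -0.53 in early glucose (-0.64 without the 552-hour array, 10 of 11 below 0 either way) and -0.52 at steady state (8 of 11 below 0). Of the 11, 0 passed early and 1 passed at steady state, ATP16 (YDL004W), which encodes the delta subunit in the stalk of the catalytic F1 head. In no3AT, ATP16 read -0.09 and 0.39 in galactose, -0.43 and -0.14 early, -0.33 and -0.31 later and -1.45 and -0.55 at steady state. In 3AT40mM it read 0.63 and 0.35 in galactose, -0.03 at 552 hours, -1.18 at 574 hours, -1.05, -0.70 and -0.08 later and -0.63 at steady state. In no3AT2 it read 1.27 in galactose, -0.40 and 0.22 early and -0.73, 0.07 and -0.39 at steady state. Every glucose array thus lay below every galactose array of its own chemostat. ATP16 fell by 1.30 at steady state (n = 3 chemostats, SE 0.28, adjusted p = 0.0081), with the same sign in each chemostat. In early glucose its change was -0.96 (SE 0.28, adjusted p = 0.0543), and -1.16 without the 552-hour array (adjusted p = 0.0448). The steady-state call was lost without the no3AT2 galactose array (-1.12, adjusted p = 0.0552). Of its 18 tested neighbouring rows, 16 were also below 0 at steady state (median -0.89), and neighbour-corrected its change was -0.35 (adjusted p = 0.4308).

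ATP2 (YJR121W), the catalytic beta subunit of F1, had the largest mean change of the complex without passing over the 3 chemostats. In no3AT it read 0.09 and 0.45 in galactose, 0.15 and 0.44 early, -0.77 and -0.84 later and -0.12 and -0.18 at steady state. The 3AT40mM values were 0.03 and 0.04 in galactose, -0.30 and -0.38 early, -1.13, -1.25 and -1.35 later and -1.22 at steady state. The no3AT2 values were 1.29 in galactose, -2.66 at 315 hours and -0.73, -0.61 and -0.78 at steady state, with none at 328 hours. In the first 2 cultures ATP2 was near or above 0 in galactose and lowest on the later arrays, and in no3AT2 it was lowest on the first glucose array. Over the 3 chemostats its change was -1.43 early (SE 0.55, adjusted p = 0.1309) and -1.22 at steady state (SE 0.55, adjusted p = 0.1296, lower in all 3). Its neighbours lay the other way, with 6 of 20 below 0 early, and its neighbour-corrected changes were -1.74 and -1.63.

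The other 9 ATP synthase genes did not pass over the 3 chemostats. ATP4, the b subunit of the stator that holds the head still, changed by -0.78 early and -0.999 at steady state. ATP1, the alpha subunit of the head, stood at -0.53 and -0.71. ATP3, the gamma subunit of the rotating stalk, was at -0.48 and -0.59. ATP14, another stator subunit, moved from -0.73 early to 0.19 at steady state (SE 0.30 for both). ATP20, subunit g, which helps pair ATP synthases in the membrane, moved from -0.35 to 0.61 (SE 0.34). Between the early and steady phases the differences were 0.91 for ATP14 and 0.96 for ATP20 (adjusted p = 0.6773 for each). ATP7, ATP15 and ATP17, further small subunits, stood at -0.28, -0.59 and -0.26 early and at 0.18, -0.52 and -0.10 at steady state. ATP5, the OSCP subunit that links stator and head, was the only one above 0 early, at 0.34, and with the neighbour-corrected values it stood at -0.07.

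The cytochrome bc1 genes had medians of -0.33 early (6 of 8 below 0, the same without the 552-hour array) and -0.44 at steady state (7 of 8 below 0). In either comparison 0 of 8 passed. At an unadjusted p under 0.05 there were 1 and 2 of the 8, beside 1111 and 1646 of all 4772 genes tested. COR1 (YBL045C), a core subunit, had the largest mean change. In no3AT it read -0.04 and 0.32 in galactose, -0.13 and 0.03 early, -0.06 and 0.50 later and -1.10 and 0.02 at steady state. In 3AT40mM the values were -0.49 and -0.35 in galactose, -0.34 and -0.79 early, -0.75, -0.66 and -0.62 later and -1.68 at steady state. In no3AT2 the values were 0.46 in galactose, -0.93 and -0.67 early and -0.46, -0.31 and 0.21 at steady state. The groups overlapped in no3AT and 3AT40mM and were apart in no3AT2. Its change was -0.53 early (SE 0.33, adjusted p = 0.3389) and -0.86 at steady state (SE 0.33, adjusted p = 0.0797), lower in all 3 chemostats. QCR8, a small subunit near the quinone site, stood at -0.69 and -0.65, and neighbour-corrected at -0.01 and 0.34. QCR9, another small subunit, was at -0.63 and -0.45. RIP1, the Rieske iron-sulfur protein, was at 0.10 and -0.26, and CYT1, cytochrome c1, at -0.12 and -0.19. QCR10 was above 0 in both comparisons, at 0.18 and 0.40. QCR6 stood at -0.47 and -0.43 and QCR7 at -0.19 and -0.48. QCR2, the second core subunit, had values on 9 of the 22 arrays, between -0.14 and 1.45, and none in no3AT2.

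Of the cytochrome c genes only CYC1 (YJR048W) was tested, and it did not pass. In no3AT, CYC1 read 0.40 and -0.01 in galactose, 0.07 and -0.24 early, 1.99 and -0.69 later and -0.06 and 1.52 at steady state. For 3AT40mM the values were -0.74 and -0.75 in galactose, -0.78 and -0.49 early, -0.87, -0.76 and -0.22 later and 0.09 at steady state. For no3AT2 the values were 0.77 in galactose, -0.15 and 0.11 early and 0.43, 0.23 and 0.11 at steady state. The spread between glucose arrays of no3AT, from -0.69 to 1.99, was wider than any difference between its phases. Over the 3 chemostats the change was -0.32 early (SE 0.30, adjusted p = 0.5494) and 0.28 at steady state (SE 0.30, adjusted p = 0.523), the latter -0.44 with the neighbour-corrected values.

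Among the 9 cytochrome oxidase genes, 8 were below 0 early (median -0.33, or -0.38 without the 552-hour array) and 6 at steady state (median -0.13), and 1 passed in each comparison, COX5B (YIL111W). In no3AT, COX5B read -0.46 and 0.17 in galactose, -0.92 and -0.78 early, -0.22 and -0.58 later and -1.48 and -1.02 at steady state. In 3AT40mM it read 1.30 and 0.24 in galactose, 0.23 at 552 hours, -1.27 at 574 hours, -1.04, -0.66 and -0.17 later and -0.61 at steady state. In no3AT2 it read 0.69 in galactose, -0.81 and -0.45 early and -0.78, -0.35 and -0.41 at steady state. Early and steady glucose arrays lay below the galactose arrays in every chemostat, while the no3AT array at 385 hours lay between its 2 galactose arrays. COX5B fell by 1.10 early (n = 3 chemostats, SE 0.27, adjusted p = 0.0251) and by 1.23 at steady state (SE 0.27, adjusted p = 0.0084), with the same sign in each chemostat. Its neighbours moved with it: 18 of 20 were below 0 early (median -0.81) and 17 of 20 at steady state (median -0.96). Neighbour-corrected, its changes were -0.30 (adjusted p = 0.5506) and -0.34 (adjusted p = 0.4443).

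The early call of COX5B was lost when any one of 5 arrays was left out. These were the 3AT40mM arrays at 477 hours (-0.93, adjusted p = 0.0566) and 574 hours (-0.85, adjusted p = 0.2741), the no3AT arrays at 316 hours (-0.999, adjusted p = 0.0798) and 344 hours (-1.08, adjusted p = 0.0706), and the no3AT2 galactose array (-1.06, adjusted p = 0.1508). Without the 552-hour array it stood at -1.35 (adjusted p = 0.0225). The steady-state call was lost without the 3AT40mM array at 937 hours (-1.20, adjusted p = 0.0516).

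The remaining cytochrome oxidase genes did not pass over the 3 chemostats. COX5A (YNL052W), the aerobic partner of COX5B, changed by -0.56 early and by -0.87 at steady state (SE 0.29, adjusted p = 0.0528, lower in all 3). The neighbour-corrected steady-state change of COX5A was -0.998 (adjusted p = 0.0769). COX8, a small membrane subunit, stood at -0.94 early (SE 0.44) and 0.12 at steady state. COX12, a subunit on the outer side of the enzyme, was the only one above 0 early, at 0.36, and stood at 0.56 at steady state (SE 0.33 for both). COX4, COX6, COX7, COX9 and COX13 lay between -0.47 and -0.09 early and between -0.40 and 0.01 at steady state.

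Succinate dehydrogenase was mixed: of its 4 genes 2 were below 0 early (median -0.16, or -0.11 without the 552-hour array) and 1 at steady state (median 0.19). In either comparison 0 of 4 passed. At an unadjusted p under 0.05 there were 0 and 1 of the 4, beside 1111 and 1646 of all 4772 genes tested. SDH4 (YDR178W), a membrane anchor subunit, was the one lower in both. In no3AT it read -0.17 and 0.22 in galactose, -0.16 and -0.84 early, -0.12 and 0.01 later and -0.80 and -0.15 at steady state. The 3AT40mM values were 0.43 and -0.06 in galactose, 0.11 and -0.72 early, -0.28, 0.30 and 0.17 later and -0.52 at steady state. The no3AT2 values were -0.13 in galactose, -0.69 and -0.47 early and -0.87, -0.67 and -0.40 at steady state. Glucose and galactose arrays of SDH4 overlapped in the first 2 chemostats and not in no3AT2. Its change was -0.49 early (SE 0.26, adjusted p = 0.2703) and -0.57 at steady state (SE 0.26, adjusted p = 0.1328), lower in all 3 chemostats. SDH3, the other anchor, was above 0 in all 3 chemostats, at 0.36 and 0.44 (SE 0.27). SDH1, the flavoprotein, stood at 0.15 and 0.21. SDH2, the iron-sulfur subunit, moved from -0.47 to 0.18, the latter -0.79 with the neighbour-corrected values.

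The 3 NADH dehydrogenases differed from one another and none passed over the 3 chemostats. NDE1 (YMR145C), the main external enzyme, which oxidises cytosolic NADH, read in no3AT 0.28 and 0.16 in galactose, 0.13 and 0.52 early, 0.31 and -0.59 later and -0.56 and -0.06 at steady state. In 3AT40mM the values were -0.15 and 0.01 in galactose, -0.12 and -0.43 early, -0.43, -0.74 and -0.79 later and 0.07 at steady state. In no3AT2 the values were 0.12 in galactose, -2.95 at 315 hours and -1.53, -1.42 and -1.39 at steady state, with none at 328 hours. All 4 glucose values of no3AT2 were below every value of the other chemostats. Over the 3 chemostats its change was -1.06 early (SE 0.47, adjusted p = 0.1856) and -0.65 at steady state (SE 0.47, adjusted p = 0.3331). NDI1, the internal enzyme, which oxidises NADH of the matrix, stood at -0.06 early and 0.73 at steady state (SE 0.30, adjusted p = 0.1043, higher in all 3 chemostats), the latter 0.19 with the neighbour-corrected values. NDE2, the second external enzyme, stood at -0.01 and 0.13.

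**Figure D3:**
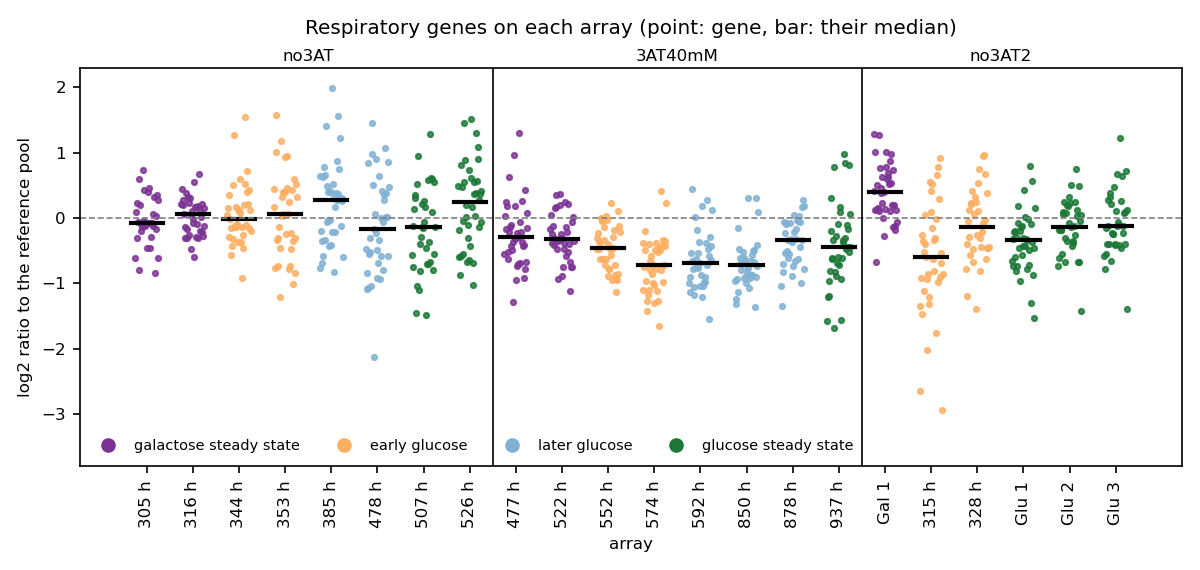
Log2 ratio to the reference pool (vertical) of each respiratory gene (points) on each array (horizontal), coloured by phase, with the median over the genes as a bar. The bars lie between -0.17 and 0.27 in no3AT, between -0.72 and -0.30 in 3AT40mM, and drop from 0.40 in galactose to -0.60 at 315 hours in no3AT2.

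The cultures differed in how the respiratory genes stood as a set. In no3AT the array medians were -0.07 and 0.06 in galactose, -0.01 and 0.06 early, 0.27 and -0.17 later and -0.14 and 0.24 at steady state, so glucose and galactose overlapped throughout. In 3AT40mM they were -0.30 and -0.32 in galactose, -0.45 and -0.72 early, -0.69, -0.72 and -0.33 later and -0.44 at steady state, all glucose values below both galactose values. In no3AT2 they were 0.40 in galactose, -0.60 and -0.14 early and -0.34, -0.13 and -0.12 at steady state. These medians describe the arrays and carry no test.

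The count of genes whose glucose arrays all lay below the galactose arrays followed the same order. In no3AT it was 2 of 38, ATP16 and COX5A, beside 10.5% of all genes with values, and 1 lay above, SDH3, beside 7.68%. In 3AT40mM it was 9 of 37, or 24.3%, beside 15.7%: ATP2, ATP4, ATP16, QCR2, QCR8, QCR9, RIP1, COX5B and COX9. QCR6 alone lay above there, beside 12.8%. QCR2 rested on 1 galactose and 1 glucose value, the latter from the 552-hour array. Without that array 12 of 36, or 33.3%, lay below, beside 24.2% of all genes: ATP1, ATP3, ATP17 and COR1 joined and QCR2 had no glucose value. Above galactose were then QCR6 and NDI1, 5.56% of the 36 beside 25.5%. In no3AT2 it was 27 of 37, or 73.0%, beside 31.8%, with a single galactose array to be below, and 2 lay above, ATP5 and QCR10, beside 32.0%. ATP16 was in the lower set in all 3 chemostats.

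Within no3AT, limma called 0 of 36 in early glucose (beside 0.0% of all genes), 0 at steady state against galactose (beside 0.0838%) and 0 at steady state against early glucose (beside 1.05%). At an unadjusted p under 0.05 the counts were 0, 5 and 3 of the 36, beside 542, 710 and 692 of all 4772 genes tested. The medians were 0.04, -0.01 and -0.14. The 5 were ATP16 at -1.15, COX5B at -1.10, ATP7 at 0.95, SDH2 at 1.00 and ATP20 at 1.21. Within 3AT40mM the counts called were 0, 0 and 0, beside 0.0% in each comparison, with medians of -0.31, -0.32 and 0.14. The counts at an unadjusted p under 0.05 were 3, 9 and 5, beside 467, 761 and 326 of all genes. Without the 552-hour array the early median was -0.43 and that of steady against early glucose 0.31. Early glucose was then the 574-hour array alone, and COX5B fell by 2.04 (adjusted p = 0.0065), ATP16 fell by 1.67 (adjusted p = 0.0155), and ATP15 and COX7 passed too, 4 of 36 beside 28.1% of all genes. The respiratory genes at 552 hours lay close to the galactose array at 522 hours, with a median absolute difference of 0.18, against 0.44 between 574 and 522 hours and 0.15 between the galactose arrays. The small differences at 552 hours ran mostly one way: 31 of 36 were below the 522-hour values (median -0.16), against 19 of 36 between the galactose arrays (median -0.01). Against the mean of both galactose arrays 30 of 37, or 81.1%, were lower at 552 hours, beside 54.7% of all genes. The p-values within a culture rest on the spread between arrays of the same culture and phase, pooled over all the cultures. They do not cover the spread between cultures. The arrays of a culture are time points or repeats, so the spread between them may be technical or due to time.

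The no3AT2 culture held most of the calls. In its early glucose phase 4 of 36 fell, ATP2, NDE1, COX8 and ATP4, beside 0.524% of all genes. There, 12 of the 36 and 1148 of all genes had an unadjusted p under 0.05. The median was -0.78 against -0.05 for all genes, with 29 of 36 below 0. ATP2 fell by 3.94 (SE 0.50, adjusted p = 0.0012), and NDE1 fell by 3.07 (SE 0.52, adjusted p = 0.0132). COX8 read 0.87 in galactose and -1.77 at 315 hours and fell by 2.64 (SE 0.54, adjusted p = 0.0344). ATP4 read 1.02 in galactose and -1.47 and -1.19 early and fell by 2.35 (SE 0.49, adjusted p = 0.0344). For ATP2, NDE1 and COX8 the early phase was the array at 315 hours alone, since the array at 328 hours had no value for them. It was set against 1 galactose array. The spread in the tests of these genes thus came from other groups of arrays, those of the other cultures among them. The array at 315 hours was low across the set. There, 31 of 37 genes were below galactose and 18 of 37, or 48.6%, over 2-fold lower, beside 24.1% of all genes. Without the 552-hour array of 3AT40mM, QCR6 (-1.62) and QCR9 (-1.36) were called in early no3AT2 as well. The share of all genes called then rose too, by a larger factor than that of the set.

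All 4 calls in no3AT2 also passed with the neighbour-corrected values, at -4.93 for ATP2 (adjusted p = 7.74e-05), -3.18 for NDE1 (adjusted p = 0.0173), -1.60 for COX8 (adjusted p = 0.0414) and -1.76 for ATP4 (adjusted p = 0.0361). ATP1 at -2.20, QCR6 at -2.37 and SDH2 at -2.17 then passed as well, making 7 of 36 beside 4.13% of all genes. The calls of COX8 and ATP4 were lost when any one of several arrays was left out, the galactose arrays of the other chemostats among them (adjusted p = 0.052 to 0.0649). ATP4 was also lost without the array at 315 hours (-2.20, adjusted p = 0.5532), and with quantile normalization 0 of the 4 passed.

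At glucose steady state in no3AT2, ATP2 fell by 2.00 relative to galactose (SE 0.41, adjusted p = 0.0304), the 1 call of 36, beside 1.42% of all genes. Between the early and steady phases ATP2 rose by 1.95 (SE 0.41, adjusted p = 0.0342), again 1 of 36, beside 0.65% of all genes. NDE1 was at -1.57 at steady state against galactose (adjusted p = 0.0658). The median at steady state was -0.57 against 0.11 for all genes, with 29 of 36 below 0. Neighbour-corrected, ATP2 stood at -2.56 against galactose (adjusted p = 0.0105), with SDH2 at -1.93 the 2 of 36 that passed beside 0.335% of all genes, and rose by 2.37 between the phases (adjusted p = 0.0094), the 1 of 36 beside 1.26%. The ATP2 call against galactose was lost without either 3AT40mM galactose array (adjusted p = 0.0604 and 0.0599) or without either of 2 of the steady-state arrays (adjusted p = 0.1356 and 0.0956). The rise was lost without any one of 7 arrays (adjusted p = 0.0549 to 0.1671). It started from the only early value of ATP2 in no3AT2, -2.66 at 315 hours, and that array could not be left out. The fall likewise rested on the only galactose array of no3AT2, where ATP2 read 1.29. Without the 552-hour array of 3AT40mM, ATP16 (-1.62) and NDE1 (-1.57) were called against galactose as well, and the share of all genes called rose too.

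**Figure D4:**
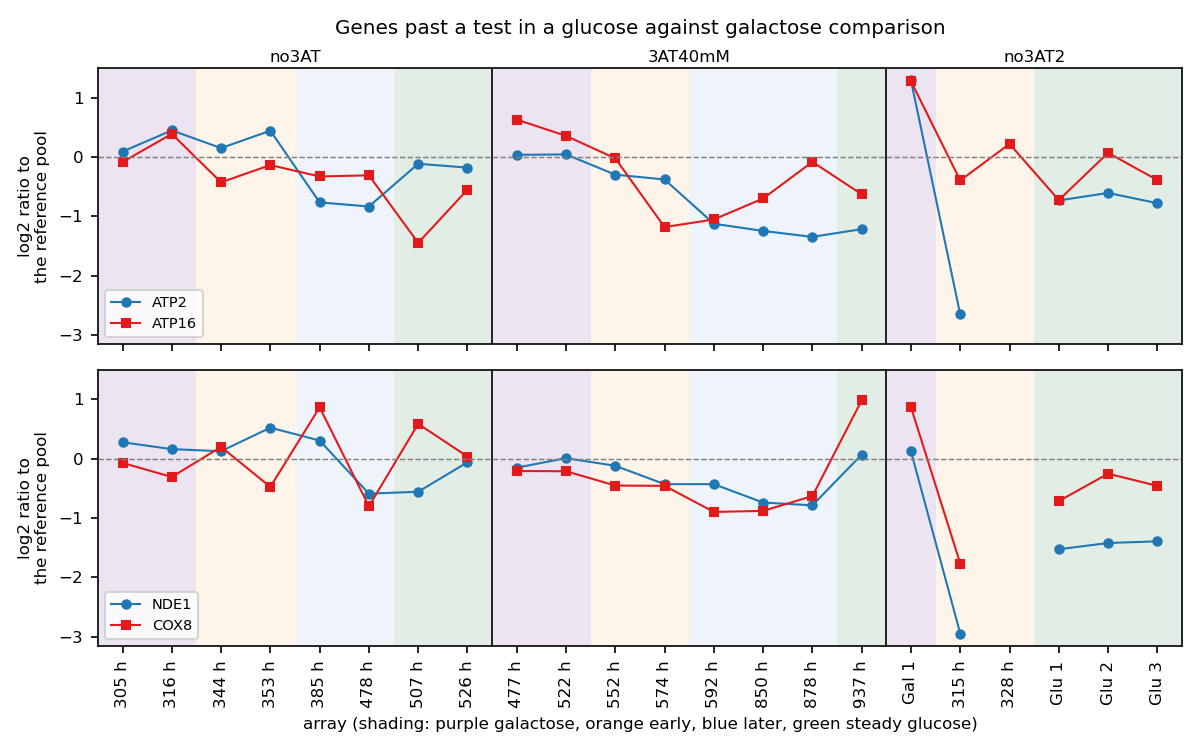
Log2 ratio to the reference pool (vertical) of ATP2 and ATP16 (top) and NDE1 and COX8 (bottom) on each array (horizontal), shaded by phase. ATP2 is lowest on the later arrays of no3AT and 3AT40mM and reaches -2.66 at 315 hours in no3AT2, and NDE1 stays between -1.53 and -1.39 on the 3 steady-state arrays of no3AT2.

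The 3AT40mM culture was compared with the mean of the cultures without 3AT, first in galactose. Most respiratory genes lay lower in it: 28 of 36 were below 0, with a median of -0.50 against 0.01 for all genes. None passed: limma called 0 of 36, beside 0.0% of all genes, with 9 of the 36 and 129 of all genes at an unadjusted p under 0.05. QCR6, an acidic subunit of bc1, differed most, at -1.47 (SE 0.41, adjusted p = 0.9981). In galactose QCR6 read -1.29 and -0.93 in 3AT40mM, 0.42 and 0.23 in no3AT and 0.38 in no3AT2, so the values did not overlap. COX12 differed by -1.27 (SE 0.40), CYC1 by -1.23 (SE 0.41), SDH2 by -1.18 (SE 0.44) and CYT1 by -1.04 (SE 0.36). In each of them both 3AT40mM galactose arrays lay below every galactose value of the other cultures. These genes, QCR6 among them, are named for their large difference in the same values, so the separation adds no support to it. The share of all genes separated in this way was not counted.

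The glucose changes of 3AT40mM were then set against those of the other cultures. In early glucose 0 of 36 differed, beside 0.0% of all genes, with 4 of the 36 and 314 of all genes at an unadjusted p under 0.05. ATP2 had the largest difference there, at 1.58 (SE 0.47, adjusted p = 0.7013). QCR6 differed by 1.35 (SE 0.56), NDE1 by 1.28 (SE 0.48) and RIP1 by -1.11 (SE 0.51). Without the 552-hour array still 0 of 36 passed, beside 2.78% of all genes, with ATP2 at 1.54 (adjusted p = 0.0763), QCR6 at 1.38, NDE1 at 1.12 and RIP1 at -1.23. At steady state 0 of 36 differed, beside 0.0% of all genes, with 2 of the 36 (COX8 at 1.61 and NDE1 at 1.19) and 104 of all genes at an unadjusted p under 0.05. With 1 culture holding the inhibitor, these p-values cover the spread between arrays and not that between cultures.

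The isoform pairs were compared within each array, as the log2 ratio of the hypoxic form minus that of the aerobic form, which shows unequal change and not levels. COX5B minus COX5A lay lower in glucose in all 3 chemostats. In galactose it was 0.00 at 316 hours in no3AT, 2.00 and 0.72 in 3AT40mM and 0.06 in no3AT2. In early glucose it was -0.78 and -0.83 in no3AT, 0.79 and -0.15 in 3AT40mM and -0.47 and 0.35 in no3AT2. At glucose steady state it was -1.02 and -0.33 in no3AT, 0.95 in 3AT40mM and -0.46, 0.08 and -0.35 in no3AT2. The groups overlapped in 3AT40mM and no3AT2, and the later no3AT arrays, at 0.61 and 0.36, lay above the galactose value. The mean change was -0.65 early (exact permutation p = 0.1481, adjusted p = 0.2963 over 6 tests), -0.46 at steady state (exact permutation p = 0.2222, adjusted p = 0.3333) and -0.49 over all glucose arrays (exact permutation p = 0.1199, adjusted p = 0.2963). Without the 552-hour array the early change was -0.81 and that over all glucose arrays -0.52 (exact permutation, adjusted p = 0.2963 for both). Leaving out 1 array at a time moved the changes between -0.92 and -0.44 early, between -0.67 and -0.25 at steady state and between -0.71 and -0.28 over all glucose arrays. The neighbour-corrected changes had the opposite sign, at 0.50, 0.67 and 0.60, and did not pass either (exact permutation, adjusted p = 0.30, 0.25 and 0.1633), so no direction can be given for this pair.

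**Figure D5:**
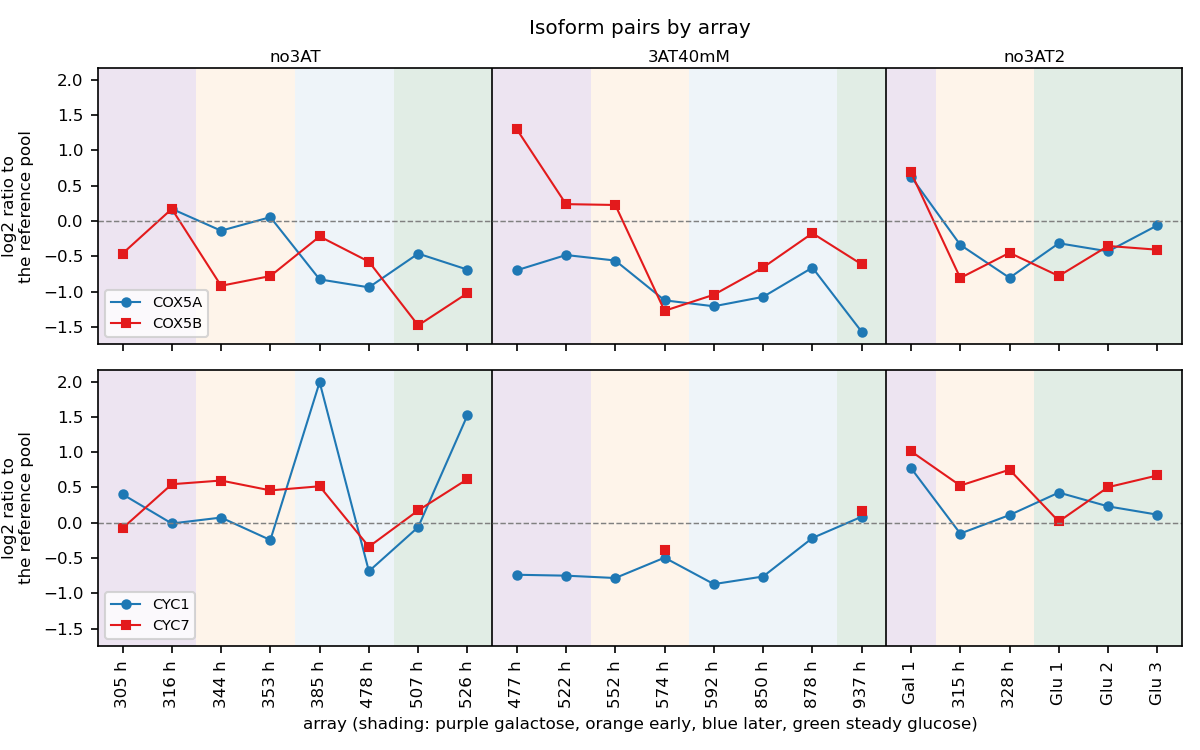
Log2 ratio to the reference pool (vertical) of COX5A and COX5B (top) and of CYC1 and CYC7 (bottom) on each array (horizontal), shaded by phase. COX5B lies above COX5A on both 3AT40mM galactose arrays and below it on the early arrays of no3AT, and CYC1 varies most on the no3AT arrays at 385 and 526 hours.

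CYC7 (YEL039C) had values on 2 of the 3AT40mM arrays, both in glucose, so its pair was compared in no3AT and no3AT2 only. In no3AT, CYC7 read -0.08 and 0.55 in galactose, 0.60 and 0.46 early, 0.52 and -0.34 later and 0.17 and 0.62 at steady state. For no3AT2 the values were 1.01 in galactose, 0.53 and 0.75 early and 0.02, 0.50 and 0.67 at steady state. All its no3AT2 glucose arrays lay below the galactose array, and in no3AT the groups overlapped. CYC7 minus CYC1 changed by 0.50 early (exact permutation p = 0.1111, adjusted p = 0.2963), by -0.24 at steady state (exact permutation p = 0.5833, adjusted p = 0.70) and by -0.01 over all glucose arrays (exact permutation p = 0.9702). Leaving out 1 array at a time moved the early change between 0.24 and 0.76. The early test had 18 arrangements, so its p could not go below 0.0556. Whether the array's probes tell these paralogs apart is not given in the sources used here.

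Genes that build the complexes, in lists of 6 to 21 tested genes, were set beside the same 6.96% and 17.4% of all genes. Of 7 tested ATP synthase assembly genes, 1 fell early and 2 at steady state. FMC1, which helps assemble F1, changed by -1.70 early (adjusted p = 0.0092) and by -2.05 at steady state (adjusted p = 0.0028). ATP12, a chaperone of the alpha subunit, fell by 0.90 at steady state (adjusted p = 0.043). Of 10 genes for bc1 assembly and expression of cytochrome b, 2 fell in both comparisons. CBP6, needed to translate the cytochrome b mRNA, changed by -1.28 and -1.31, and CBP1, which stabilises that mRNA, by -1.06 and -1.17. Of 21 cytochrome oxidase assembly genes, 0 passed early and 2 at steady state. COX10, which makes the precursor of haem a, rose by 1.04 (adjusted p = 0.0195), and MSS2, which exports a part of Cox2, fell by 0.99 (adjusted p = 0.023). Early, COX15 had the largest change of that list, at 0.98 (adjusted p = 0.0517). Of 6 succinate dehydrogenase assembly genes and paralogs, SDH7 alone passed, falling by 0.90 at steady state (adjusted p = 0.043). Early, SDH7 (-1.30, adjusted p = 0.0362) and COX15 (1.29, adjusted p = 0.0234) passed too when the 552-hour array was left out. None of the called genes passed with the neighbour-corrected values, where FMC1 stood at -0.73 and -0.90.

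Genes of cofactors, carriers and other dehydrogenases were set beside the shares of all genes that passed, 6.96% early and 17.4% at steady state. These lists held only 2 to 8 tested genes each. Of 2 other ATP synthase subunits and regulators 0 passed, with INH1, the ATPase inhibitor, at -0.24 and -0.36. Of 7 haem synthesis genes 0 passed, the largest changes being HEM13 at -0.55 early and HEM12 at -0.54 at steady state. Of 7 coenzyme Q genes 0 passed, with COQ2 at 0.70 early and COQ5 at 1.03 at steady state, and the list's median was 0.29 and 0.60. Of 8 other dehydrogenases GUT2, which feeds electrons from glycerol 3-phosphate, fell by 1.17 at steady state (adjusted p = 0.0238). Of 5 ADP/ATP and phosphate carriers MIR1, the phosphate carrier, fell by 1.38 at steady state (adjusted p = 0.0295). Of 8 tested hypoxic genes, 1 fell early, COX5B itself, and at steady state DAN1, a cell wall protein, rose by 1.19 (adjusted p = 0.0334) while COX5B fell. GUT2 also passed early when the 552-hour array was left out, at -1.22 (adjusted p = 0.0481). GUT2, MIR1 and DAN1 did not pass with the neighbour-corrected values, at -0.41, -1.83 and 0.30.

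Of 8 tested regulators of respiratory genes 1 passed, HAP1, the haem-responsive activator of aerobic genes, which rose at steady state. In galactose HAP1 read -1.08 and -1.58 in no3AT, -0.89 and -1.18 in 3AT40mM and -0.66 in no3AT2. At glucose steady state it read -0.63 and 0.56 in no3AT, 0.42 in 3AT40mM and 1.01, 1.41 and 1.21 in no3AT2. Each steady-state array lay above each galactose array of its chemostat. HAP1 rose by 1.54 (SE 0.31, adjusted p = 0.005), and early its change was 0.62 (adjusted p = 0.2362). Neighbour-corrected, the steady-state change was 1.09 (adjusted p = 0.1287). CYC1, a known target of Hap1, stood at 0.28 in the same comparison without passing. HAP4, the glucose-repressed activating subunit of the Hap complex, changed by -0.30 early (adjusted p = 0.6595) and -0.29 at steady state without passing. The cultures differed. In no3AT HAP4 read 0.14 in galactose, 0.35 and 0.94 early and 0.48 and -0.62 at steady state. In 3AT40mM it read -0.47 and -0.93 in galactose, -0.84 and -0.51 early and -0.34 at steady state. In no3AT2 it read 0.36 in galactose, -1.42 and -0.69 early and -0.81, -0.37 and -0.76 at steady state. ROX1, the repressor of hypoxic genes, was not tested, having no value on the early no3AT2 arrays. In no3AT it read -0.10 and -0.45 in galactose and 0.28 and 0.92 at steady state, and in 3AT40mM -0.98 and -0.94 in galactose and 0.32 at steady state. In no3AT2 it read -0.07 in galactose and -0.23, 0.27 and -0.55 at steady state. Thus ROX1 was above galactose at steady state in the first 2 chemostats and overlapped it in no3AT2.

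The subunits encoded in the mitochondrial genome could not be set beside the nuclear ones. COX2 had values on 9 arrays, COX3 on 3, and COX1 and COB, cytochrome b, on 2 each, so none entered a fit.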

How the data were processed

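RNA of 3 chemostats was measured on 22 two-colour arrays, 16 of total and 6 of polyA RNA. Per the labels, Cy5 marked the sample and Cy3 a reference pooled from both sugars, and RNA was extracted with hot phenol. The values are signed log ratios of sample over reference, as deposited, and were taken as log2. Their base, scanning, background correction, normalization and spot filters are not stated in the sources used here. With another base every log2 value would scale. Without intensities the depth is unknown, and the number of arrays limits the precision.

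Of 6281 rows, 5763 could be matched to R64 genes (57 through older or second names) and 518 could not. Averaging the rows of a gene left 6242 genes. Array medians ran from -0.15 to 0.07 and were subtracted. A gene was tested if it had a value on 80% or more of the 17 arrays fitted and at least 1 value per chemostat and phase, 9 cells in all, which left 4772. The 5 later glucose arrays entered no limma fit. Shared changes were fitted with limma 3.58.1 (R 4.3.3) to the 9 cell means, blocked by chemostat (residual df 4, prior df 10.6). Comparisons within and between chemostats used the 17 arrays and a mean for each cell (residual df 8, prior df 11.5), so a cell holding 1 array borrows the spread of the rest. All p-values were two-sided, with Benjamini-Hochberg adjustment across the 4772 genes and a threshold of 0.05. The fits were tested on simulated data. For the isoform pairs, phase labels were permuted exactly within chemostats, two-sided, and adjusted over the 6 tests. Arrays of a chemostat are time points or repeats of one culture.

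Values are given array by array for the isoform pairs, for genes past the threshold over 3 chemostats and for the gene with the largest mean change of each complex. Of other lists, up to 3 genes past the threshold, or else the gene with the largest change, are named, with HAP1, HAP4 and ROX1 always. The genes, lists, tests and alternatives, the neighbour correction among them, were chosen with earlier results of these data known. The alternative that combined that correction with leaving out the 552-hour array was added after the data were seen. The array's genome build is unknown here, so no coordinates are printed.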

Additional observations from a re-analysis of the deposited data

Results flagged for a closer look

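QCR6, a small subunit of the cytochrome bc1 complex, went opposite ways in glucose in a pair of the cultures. In 3AT40mM every glucose array lay above both galactose arrays, by 0.46 on average (0.4622), and in no3AT2 every glucose array lay below the galactose array, by -1.33 on average (-1.3348). Its galactose values were -1.29 and -0.93 in 3AT40mM and 0.38 in no3AT2. With the neighbour-corrected values the 3AT40mM groups overlapped, with galactose at -1.28 and -0.82, glucose from -1.12 to -0.62 and a mean difference of 0.20, while in no3AT2 all glucose arrays were still lower, by -2.03 on average. The 3AT40mM difference was 0.47 without the 552-hour array. The difference between 3AT40mM and no3AT2 alone was not tested. Against the mean of both cultures without 3AT, the difference in the early glucose change was 1.35 (SE 0.56, limma adjusted p = 0.7013). QCR6 was picked out of the respiratory genes by this opposite separation itself, and the share of all genes that show it was not counted. Taken singly, all glucose arrays lay above galactose in 3AT40mM for 12.8% of all genes, and below it in no3AT2 for 31.8%. Groups held at most 3 arrays, so single arrays within groups were not tested as outliers.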

How the results depend on the processing

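The falls of COX5B, ATP16, ATP2, NDE1, COX8 and ATP4 named in the report kept their sign under each alternative run, but not all kept their call. For the falls within no3AT2, leaving out the only galactose array of that culture could not be run. For ATP2, NDE1 and COX8 leaving out the array at 315 hours, their only early value there, could not be run either. The sign of these falls was thus not checked without the arrays that set it. Over all 4772 genes the count called early went from 332 to 0 with the neighbour-corrected values, and at steady state from 832 to 23. Leaving out 1 array at a time gave 0 to 522 and 298 to 1116. The other counts here are of the respiratory genes tested (36, or 25 on genes valued on all 17 arrays), each followed by the share of all genes called under the same setting, and the causes of the shifts were not tested. In early glucose over 3 chemostats the count of 1 became 2 with arrays as units (5.91%), on genes valued on all 17 arrays (8.1%), with the values as deposited (7.59%) and without the 552-hour array (10.4%). It became 0 with the neighbour-corrected values, with or without the 552-hour array (0.0% in both), with no chemostat block (0.0%), with quantile normalization (4.42%), without 3AT40mM (0.0647%) and without no3AT2 (2.89%). At steady state the count of 2 became 0 with the neighbour-corrected values (0.482%, and 0.0% without the 552-hour array) and without 3AT40mM (3.49%), 6 with quantile normalization (25.5%) and 4 without no3AT2 (19.7%). Steady against early glucose gave 2 instead of 0 without no3AT2 (3.64%). Leaving out 1 array at a time gave 0 to 2 early, 1 to 4 at steady state and 0 between the glucose phases.

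Within chemostats, 3AT40mM early glucose went from 0 to 4 without the 552-hour array (28.1%) and to 5 when also neighbour-corrected (26.6%), and its steady state from 0 to 2 with quantile normalization (1.93%). In no3AT2 the early count of 4 became 1 on genes valued on all 17 arrays (1.22%), 7 neighbour-corrected (4.13%), 10 also without the 552-hour array (12.6%), 0 with quantile normalization (0.0%) and 2 with the values as deposited (0.335%). Its steady-state count of 1 against galactose became 0 on genes valued on all 17 arrays (2.57%), 2 neighbour-corrected (0.335%), 4 also without the 552-hour array (5.11%), 2 with quantile normalization (2.81%) and 3 without the 552-hour array alone (7.17%). Its count of 1 between the phases became 0 on genes valued on all 17 arrays (1.22%) and with quantile normalization (0.775%), and 2 without the 552-hour array (3.66%), also when neighbour-corrected (6.58%). Leaving out 1 array at a time gave 0 to 4 for early 3AT40mM, 0 to 2 for the phases of no3AT, and 0 to 6, 0 to 3 and 0 to 2 for no3AT2. The early difference between 3AT40mM and the cultures without 3AT went from 0 to 1 when neighbour-corrected without the 552-hour array (11.6%).

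The median of steady against early glucose, 0.08, turned to -0.0081 with quantile normalization and to -0.0746 without no3AT2. Neighbour-corrected, COX5B minus COX5A turned to 0.5028 early, 0.6732 at steady state and 0.6011 over all glucose arrays, and CYC7 minus CYC1 to 0.6307 at steady state and 0.6183 over all glucose arrays. Over all glucose arrays CYC7 minus CYC1 was 0.1103 without no3AT. Leaving out 1 array at a time moved it between -0.2705 and 0.2487, and at steady state between -0.5206 and 0.0505. No paired analysis was possible because the labels number replicates in 1 group only, and the chemostat served as the block.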

Other observations

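The 5 later glucose arrays, which entered no fit, showed the respiratory genes low in one culture and mixed in the other. Against the mean of the 3AT40mM galactose arrays, 24 of 35 genes were lower at 592 hours, 30 of 36 at 850 hours and 20 of 36 at 878 hours. The median changes were -0.36, -0.52 and -0.06, against 0.04, 0.03 and 0.01 for all genes. The shares over 2-fold lower were 14.3% at 592 hours, 13.9% at 850 hours and 2.78% at 878 hours, beside 19.0%, 5.17% and 2.41% of all genes. ATP2 read -1.13, -1.25 and -1.35. In no3AT, 16 of 38 were below the galactose mean at 385 hours and 23 of 37 at 478 hours, with median changes of 0.15 and -0.27 against 0.02 and -0.02 for all genes. Over 2-fold lower there were 2.63% at 385 hours, a smaller share than of all genes, and 13.5% at 478 hours, beside 11.4% of all genes. The widest values there were CYC1 at 1.99 at 385 hours and QCR7 at -2.13 at 478 hours. These are single arrays with no test.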
